A study of Homo sapiens with 16 samples.

Results

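The genes described here are 8 oncofetal genes tied to the let-7 microRNA family: HMGA1, HMGA2, LIN28B, IGF2BP1, IGF2BP2, IGF2BP3, IGF2 and H19. They were taken by symbol from a table of 63677 gene identifiers, and each of the 8 symbols had 1 identifier in the count table, so no choice between identifiers was needed. The set was chosen by name, with the counts and FPKM of these genes in both lines already known, so their levels are a description. They were measured by poly-A RNA sequencing in Mia-PaCa-2 and PANC-1, which are established human pancreatic carcinoma cell lines. Both lines were grown in DMEM with fetal bovine serum and harvested at 24 hours as untreated control, with genistein alone at 50 uM (a soy isoflavone), with gemcitabine alone at 40 nM (a cytidine analogue that stalls DNA replication), or with both drugs at the same doses. Each of the 8 groups had 2 libraries, labelled I and II and described in the study's methods as biological replicates. All groups are drug-treated or control cultures of a single tumour line, so differences between the lines cannot be told apart from anything else in which these cell lines differ. The solvent was DMSO for genistein but not for gemcitabine, and the labels do not give a vehicle for the control.

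Many of these genes are active in embryonic and fetal tissue, fall silent in most adult tissue and return in many tumours. Mature let-7 microRNAs repress transcripts that carry a match to the let-7 seed, and HMGA2, LIN28B and the IGF2BP genes are classical let-7 targets. LIN28B is an RNA-binding protein that blocks the maturation of let-7 precursors, so it stands upstream as well as downstream of let-7. HMGA1 and HMGA2 are architectural chromatin proteins that bind AT-rich DNA. IGF2BP1, IGF2BP2 and IGF2BP3 bind and stabilise messenger RNAs, the fetal growth factor IGF2 among them. H19 is a long non-coding RNA whose gene neighbours IGF2 on chromosome 11, where the parental copies are imprinted, and it is known to bind let-7.

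Total gene counts ran from 12943482 to 31991860 per library, and libraries I and II of a group differed by more than counting noise in every group. The libraries also differed in how read counts varied with the GC content of genes. In PANC-1, control I had relatively more reads on GC-rich genes, with a slope of 0.297 log2 units per 10 percentage points of GC against the mean of the line, while control II had a slope of -0.074. In Mia-PaCa-2, the controls had slopes of -0.239 and -0.145 and the gemcitabine libraries 0.148 and 0.057, so GC content moved with treatment. The members span the range over which this matters, from 39.4% GC in HMGA2 and 39.9% in LIN28B to 61.1% in IGF2, 61.5% in HMGA1 and 61.8% in H19. Results of the members are therefore given also with each library corrected for gene GC content where this altered a call, and the partner gene lists were not recomputed with this correction. Epithelial markers had a median FPKM (the authors' expression value, scaled for transcript length and sequencing depth) above 1 for 8 of 8 genes in PANC-1 and 5 of 8 in Mia-PaCa-2, where the epithelial adhesion gene EPCAM was listed at 0 in all libraries. Acinar and endocrine markers, 4 genes each, were listed at 0 throughout Mia-PaCa-2 and summed to at most 0.367 and 0.17 FPKM in PANC-1. Endothelial and hepatocyte markers, 3 each, summed to at most 1.72 and 0.0991 FPKM in Mia-PaCa-2 and to at most 0.0777 and 0.759 in PANC-1. The 5 mesenchymal markers summed to 2340 to 3880 FPKM in Mia-PaCa-2 and 1410 to 2750 in PANC-1. Vimentin (VIM) alone had 2340 to 3880 and 1400 to 2730. Of the others, CDH2 had at most 0.0102 FPKM in Mia-PaCa-2 against 8.06 to 13.0 in PANC-1. Median FPKM in Mia-PaCa-2 and PANC-1 was 2.41 and 3.56 for ZEB1, 1.37 and 0.844 for FN1 and 1.14 and 0.242 for SNAI2. Of 4 leukocyte markers the lysosomal gene CD68 reached 221 FPKM in PANC-1 (median 163) and had 14.2 to 37.6 in Mia-PaCa-2. CD14 went the other way, with a median of 0.616 in PANC-1 and 3.09 in Mia-PaCa-2. The leukocyte-defining PTPRC did not exceed 0.0146 in any library, and CD3E did not exceed 0.0236. Of 4 fibroblast markers COL1A1 had 33.7 to 99.7 FPKM in PANC-1 and 0.443 to 1.83 in Mia-PaCa-2. PDGFRB had 0.958 to 4.77 in PANC-1 and at most 0.244 in Mia-PaCa-2. COL3A1 did not exceed 0.72 in any library, and DCN was listed at 0 in all. The part of these markers in the results was not tested.

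The members are linked by the let-7 seed, so the family is shown first. RefSeq (GRCh38.p14) gave 9 mature 5′ arms of let-7 and miR-98, and capitals mark the seed, bases 2 to 8, which was the same in 9 of 9.
let-7a-5p: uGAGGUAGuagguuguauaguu
let-7b-5p: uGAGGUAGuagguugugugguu
let-7c-5p: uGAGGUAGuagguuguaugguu
let-7d-5p: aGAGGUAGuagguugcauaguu
let-7e-5p: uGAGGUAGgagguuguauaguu
let-7f-5p: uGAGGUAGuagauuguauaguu
let-7g-5p: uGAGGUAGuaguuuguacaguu
let-7i-5p: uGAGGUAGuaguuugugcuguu
miR-98-5p: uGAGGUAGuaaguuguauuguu
The sequences outside the seed differ only at a few bases. Levels of the mature microRNAs were not analysed here.

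The reverse complement of this seed, CTACCTC, was searched on the transcript strand of the canonical 3′ UTR of each coding member (GRCh37, GENCODE). It occurred 15 times in 6 members, with 4 matches each in HMGA2, LIN28B and IGF2BP1 and 1 match each in HMGA1, IGF2BP2 and IGF2BP3. Windows of 30 bases around the matches are shown because they are the sequence feature the members share, and capitals mark the match.
HMGA2 chr12:66357078-66357107 (plus strand): gccaacgttcgatttCTACCTCagcagcag
HMGA2 chr12:66358313-66358342 (plus strand): ccccactactcaataCTACCTCtgaatgtt
HMGA2 chr12:66358725-66358754 (plus strand): ttgacttgcaaagacCTACCTCcagacttc
HMGA2 chr12:66359578-66359607 (plus strand): aatcaaaacacactaCTACCTCttaagtcc
LIN28B chr6:105526687-105526716 (plus strand): acccggttgcaaagtCTACCTCatgcaagt
LIN28B chr6:105529114-105529143 (plus strand): tactgatgatagtaaCTACCTCtgagtttg
LIN28B chr6:105529296-105529325 (plus strand): gtttacagcaaaaggCTACCTCatagttga
LIN28B chr6:105530735-105530764 (plus strand): aaatgatggtgttgaCTACCTCttgaatca
IGF2BP1 chr17:47128423-47128452 (plus strand): tgtgtgcgaagtaaaCTACCTCaaggtatg
IGF2BP1 chr17:47131060-47131089 (plus strand): cagcagtgctagtaaCTACCTCacagagcc
IGF2BP1 chr17:47131714-47131743 (plus strand): gtataaatggattaaCTACCTCaatcctta
IGF2BP1 chr17:47132359-47132388 (plus strand): tcacttttgttttatCTACCTCttagcaaa
HMGA1 chr6:34213606-34213635 (plus strand): tcctctgttcacaaaCTACCTCtggacagt
IGF2BP2 chr3:185362001-185362030 (minus strand): aacacacagaagaagCTACCTCaggtgttt
IGF2BP3 chr7:23351407-23351436 (minus strand): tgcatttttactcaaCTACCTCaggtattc
The match was followed by an A, the base that often flanks microRNA sites, in 8 of the 15. No match was found in the 3′ UTR of IGF2, of 3870 bases, or in the exons of any annotated H19 transcript, which says only that these letters are missing there.

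Among 19085 canonical 3′ UTRs, 9.72% held at least 1 match and 0.0629%, or 12 UTRs, held 4 or more. HMGA2, LIN28B and IGF2BP1 were thus 3 of those 12. Length was taken into account by comparing each with the UTRs within 20% of its own length. A count of 4 or more was found in 0.0909% of 2201 UTRs like that of HMGA2 (2999 bases), in 0.198% of 1518 like that of LIN28B (4549 bases) and in 0.535% of 747 like that of IGF2BP1 (6701 bases). A single match was less rare, with at least 1 in 8.43% of UTRs as long as that of HMGA1, 12.7% for IGF2BP2 and 12.4% for IGF2BP3. These genes are known let-7 targets, so the matches describe the members and were not discovered here.

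**Figure D1:**
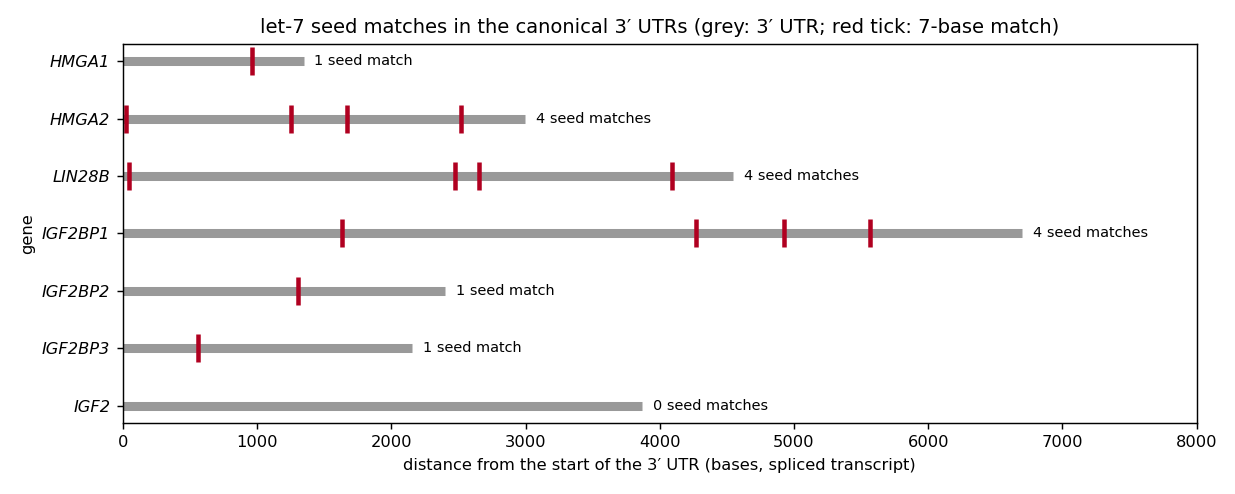
Positions of let-7 seed matches (red ticks) along the canonical 3′ UTR (grey bars, to scale) of the 7 coding members, in bases from the start of the UTR. HMGA2, LIN28B and IGF2BP1 carry 4 each, HMGA1, IGF2BP2 and IGF2BP3 carry 1 each, and IGF2 carries none.

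The lines differed in the 3 genes with 4 seed matches, whose RNA was at or near 0 counts in Mia-PaCa-2. The members were proposed with this line contrast known, so levels are described without a test. HMGA2 (ENSG00000149948, chr12:66218240-66360071, plus strand) had 2004 and 4267 counts in the PANC-1 controls against 2 and 1 in the Mia-PaCa-2 controls, and no Mia-PaCa-2 library of any treatment had more than 2. LIN28B (ENSG00000187772, chr6:105384491-105531207, plus strand) had 55 and 213 counts in the PANC-1 controls and 0 in all 8 Mia-PaCa-2 libraries. IGF2BP1 (ENSG00000159217, chr17:47074747-47133507, plus strand) had 2449 and 3294 counts in the PANC-1 controls and at most 1 in any Mia-PaCa-2 library. All PANC-1 libraries were thus above all Mia-PaCa-2 libraries for these 3 genes, under every treatment. Set against a floor of 3 counts per Mia-PaCa-2 control library, TMM-normalized CPM (counts scaled to library size) in the PANC-1 controls were at least 567-fold higher for HMGA2, at least 547-fold higher for IGF2BP1 and at least 22-fold higher for LIN28B. The bound for LIN28B was 13-fold with PANC-1 control I alone and 32-fold with control II alone, and LIN28B had 0.463 to 1.36 FPKM across the PANC-1 libraries. In Mia-PaCa-2 treated with both drugs, library I listed 0.208 FPKM for HMGA2 and 0.257 for IGF2BP1, which rested on 1 count each.

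H19 (ENSG00000130600, chr11:2016396-2025782, minus strand) was the only other member whose 8 PANC-1 libraries all lay above the 8 Mia-PaCa-2 libraries. It ranged from 70.1 to 160 FPKM (median 83.2) in PANC-1 and from 5.77 to 19.99 (median 10.8) in Mia-PaCa-2, and its mean CPM in the controls was 22.8 times as high in PANC-1. In all, 4 of 8 members did not overlap between the lines, all 4 higher in PANC-1, where 37.5% of 17863 genes did not overlap in either direction and 23.4% were higher in PANC-1. In the control libraries alone 7 of 8 members did not overlap, against 77.7% of all genes, so that count is near the background. Its neighbour IGF2 (ENSG00000167244, chr11:2150342-2179621, minus strand) had a mean CPM 8.13 times as high in the PANC-1 controls, with 2.96 and 2.68 FPKM against 0.237 and 0.357. Over all libraries IGF2 overlapped, because Mia-PaCa-2 library I of both drugs reached 2.05 FPKM, on 126 counts. The lowest PANC-1 library, genistein II, had 1.88, and the next highest Mia-PaCa-2 library, both drugs II, had 1.575.

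The remaining 3 members were abundant in both lines. HMGA1 (ENSG00000137309, chr6:34204650-34214008, plus strand) was the most abundant member in each line, with 217 to 317 FPKM in Mia-PaCa-2 and 293 to 399 in PANC-1. HMGA1 has processed copies elsewhere in the genome and reads with several alignments were removed by the authors, so its level is uncertain. IGF2BP2 (ENSG00000073792, chr3:185360918-185542830, minus strand) overlapped between the controls of both lines, with 45.6 and 52.0 FPKM in Mia-PaCa-2 and 46.7 and 45.3 in PANC-1. IGF2BP3 (ENSG00000136231, chr7:23349828-23510110, minus strand) was the 1 member with a lower control mean in PANC-1 by more than the spread, with 20.8 and 28.5 FPKM against 62.6 and 66.7 in Mia-PaCa-2. Its CPM ratio of PANC-1 to Mia-PaCa-2 controls was 0.439. The gene MALSU1 shares 17.8% of the exon bases of IGF2BP3 on the opposite strand and had 499 to 1609 counts, and the strand setting of the counting is not given in the sources used here.

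By median FPKM the order in PANC-1 was HMGA1 (354), H19 (83.2), IGF2BP2 (48.6), IGF2BP1 (38.9), HMGA2 (30.4), IGF2BP3 (22.2), IGF2 (2.76) and LIN28B (1.17). The libraries of IGF2BP2 and IGF2BP1, of IGF2BP1 and HMGA2, and of HMGA2 and IGF2BP3 overlapped in their ranges over treatments. Within single libraries IGF2BP2 exceeded IGF2BP1 in 7 of 8, IGF2BP1 exceeded HMGA2 in 7 of 8 and HMGA2 exceeded IGF2BP3 in 8 of 8. In counts per kilobase of the canonical transcript these numbers were 8, 0 and 8, so the place of IGF2BP1 above HMGA2 rested on the unit. In Mia-PaCa-2 the order was HMGA1 (246), IGF2BP2 (40.1), IGF2BP3 (36.1), H19 (10.8) and IGF2 (0.866), with IGF2BP2 and IGF2BP3 overlapping. IGF2BP2 was the higher of these 2 in 3 of 8 libraries by FPKM and in 0 of 8 by counts per kilobase of the canonical transcript. Within the IGF2BP family, IGF2BP3 held the larger share in the Mia-PaCa-2 controls, 57.8% and 56.2% of the summed FPKM against 42.1% and 43.8% for IGF2BP2. Over all 8 Mia-PaCa-2 libraries the median shares were 51.2% for IGF2BP3 and 48.6% for IGF2BP2 in FPKM, and 58.6% and 41.4% in counts per kilobase of the canonical transcript. In PANC-1 the median shares were 34.8% for IGF2BP1, 44.6% for IGF2BP2 and 20.2% for IGF2BP3. The share of IGF2BP1 depended on the unit: counts per kilobase gave it 20.7% and IGF2BP3 31.1%, which puts IGF2BP1 below IGF2BP3. Counts per kilobase were added after seeing the data. In the HMGA pair, HMGA2 was 5.92% to 11.3% of the summed FPKM in PANC-1.

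**Figure D2:**
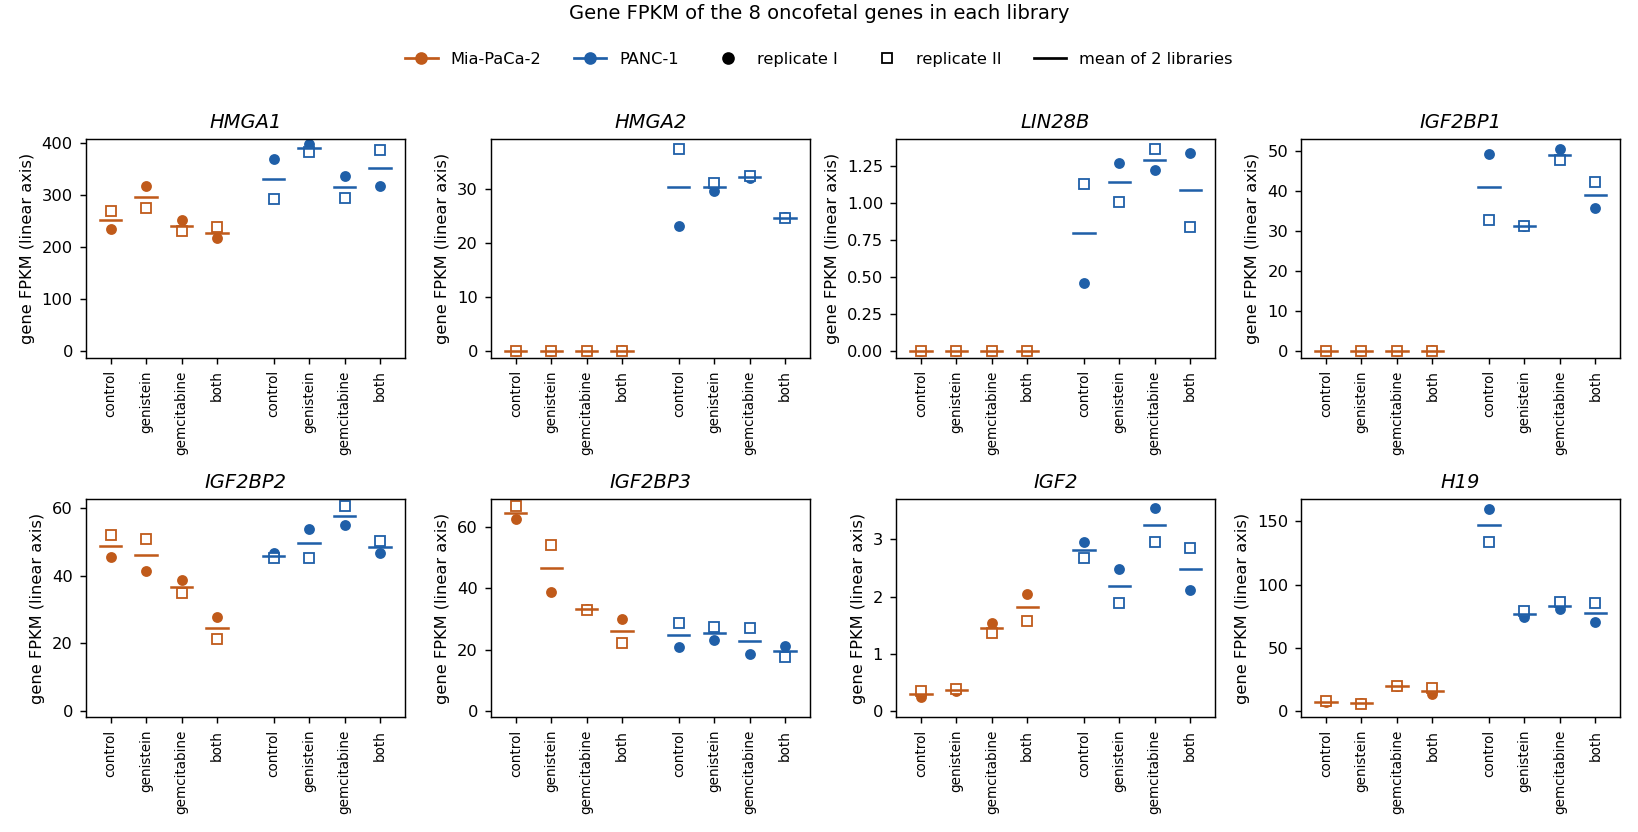
Gene FPKM (linear axis from 0) in each library of the 4 treatments, for Mia-PaCa-2 (orange) and PANC-1 (blue), with replicate I as filled circles, replicate II as open squares and the mean as a line. HMGA2, LIN28B and IGF2BP1 lie at or near 0 in Mia-PaCa-2, IGF2 and H19 are higher there with gemcitabine alone or with both drugs, and H19 is highest in the 2 PANC-1 controls, at 160 and 134 FPKM.

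The isoform estimates bear on which transcripts carry the seed matches. They come from short single reads and are given as a description. FPKM is divided by transcript length, so a short form takes a larger share of the FPKM than of the reads. In PANC-1 the full-length HMGA2 transcript with 4 matches (ENST00000403681, 4117 bases) made up 53.0% to 72.9% of the summed isoform FPKM. A 485-base transcript with 1 match (ENST00000539662), annotated as a target of nonsense-mediated decay, made up 21.9% to 39.0%. Transcripts with no match in the 3′ UTR made up 4.97% to 8.64%. Full-length HMGA2 was highest in control II at 24.3 FPKM and lowest with both drugs, at 14.9 and 13.0. For IGF2BP1, the full-length transcript with 4 matches (ENST00000290341, 8796 bases) held 17.9% to 28.5% of the FPKM, which is not its share of the reads. It stayed between 7.48 and 9.28 FPKM in all 8 PANC-1 libraries. A 461-base retained-intron fragment (ENST00000505562) held 40.6% to 52.3% and a 1317-base coding transcript without a match (ENST00000431824) held 25.7% to 34.3%. The gene FPKM of IGF2BP1, from 31.1 to 50.3, therefore varied mostly with these short forms. LIN28B had a single isoform in the file, and it carries 4 matches. For IGF2BP2, the transcript with 1 match (ENST00000382199, 4283 bases) held 8.13% to 17.7% of the FPKM in Mia-PaCa-2 and 4.66% to 23.7% in PANC-1. A 1711-base coding transcript of IGF2BP2 without a match (ENST00000421047) held 31.7% to 43.2% and 28.2% to 54.5%. The longest H19 form (ENST00000442037, 2252 bases) had a median share of 41.2% in Mia-PaCa-2 and 37.2% in PANC-1, and a retained-intron form (ENST00000447298) had 37.1% and 37.2%. IGF2 came mainly from ENST00000381395, with a median share of 88.3% in Mia-PaCa-2 and 84.4% in PANC-1.

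**Figure D3:**
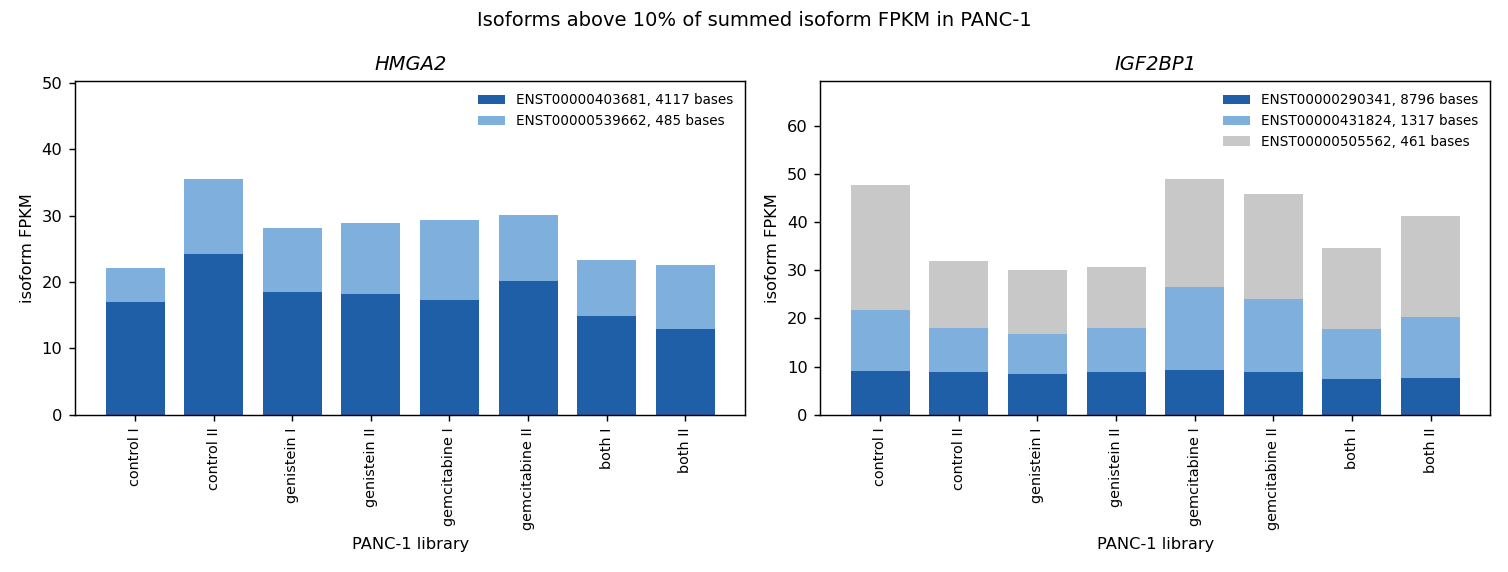
Isoform FPKM in each PANC-1 library for isoforms above 10% of the summed isoform FPKM of HMGA2 (left) and IGF2BP1 (right), stacked with the longest transcript at the bottom. Full-length IGF2BP1 stays between 7.48 and 9.28 FPKM while its short forms vary, and full-length HMGA2 ranges from 13.0 to 24.3.

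The design asked what each drug, and both together, did to these transcripts in each line. A gene was called when its Benjamini-Hochberg adjusted p from limma-voom was at most 0.05, its log2 fold change at least 0.4 in size and its FPKM in treated cells above 1 on average, the thresholds of the study. All comparisons with control in a line share the same 2 control libraries. HMGA2, LIN28B and IGF2BP1 were too low to be tested in Mia-PaCa-2, which left 5 members there and 8 in PANC-1. A change in RNA per cell and a change in the share of cells that express a gene cannot be told apart in these bulk libraries.

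In Mia-PaCa-2, gemcitabine raised IGF2 and H19 together and lowered IGF2BP2 and IGF2BP3. These were 4 of the 5 members tested, where 29.6% of 16064 genes were called. IGF2 had 20 and 24 counts in the controls, or 1.22 and 1.84 CPM, against 6.41 and 5.35 CPM with gemcitabine. It rose 3.78-fold (log2 fold change 1.92, SE 0.30, adjusted p = 3.7e-04 by limma-voom). H19 had 5.66 and 7.12 CPM in the controls and 20.9 and 18.6 with gemcitabine, and rose 3.01-fold (1.59, SE 0.16, adjusted p = 2.3e-05 by limma-voom). The treated libraries lay above the controls for both genes without overlap. IGF2 shares exon bases with INS-IGF2 on the same strand, 20.4% of its own, but that gene was at 0 counts in all libraries, and IGF2-AS, on the opposite strand, had at most 3. A further gene on the same strand, ENSG00000284779, shares 37.9% of the exon bases and was not analysed here, so reads of the 2 cannot be told apart.

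The messenger RNA-binding IGF2BP genes moved the other way. IGF2BP3 had 62.6 and 66.7 FPKM in the controls and 33.4 and 32.8 with gemcitabine. In CPM it fell 1.75-fold (log2 fold change -0.81, SE 0.11, adjusted p = 1.4e-04 by limma-voom). IGF2BP2 fell from 112.9 and 109.9 CPM to 79.4 and 75.4, 1.49-fold lower (-0.58, SE 0.09, adjusted p = 4.4e-04 by limma-voom). Neither overlapped with the controls. On the FPKM scale the fall of IGF2BP2 did not pass the test, with a log2 change of -0.40 and adjusted p = 0.108 by limma-trend on log2(FPKM + 1). HMGA1 had 411.3 and 465.1 CPM in the controls and 411.2 and 390 with gemcitabine, and was not called (-0.18, SE 0.10, adjusted p = 0.156 by limma-voom). Corrected for GC content, HMGA1 fell by 0.58 on the log2 scale (adjusted p = 1.3e-05 by limma-voom), while IGF2 and H19 rose by 1.53 and 1.17 and stayed called.

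With both drugs the same 4 members were called in Mia-PaCa-2, in the same directions, where 40.5% of genes were called. IGF2 rose 4.93-fold, to 8.95 and 6.66 CPM (log2 fold change 2.30, SE 0.29, adjusted p = 3.9e-05 by limma-voom). H19 rose 2.44-fold, to 14.8 and 17.4 CPM (1.29, SE 0.17, adjusted p = 5.0e-05 by limma-voom). IGF2BP3 fell 2.47-fold, to 84.8 and 67.0 CPM (-1.30, SE 0.11, adjusted p = 2.0e-06 by limma-voom), and IGF2BP2 fell 1.84-fold, to 66.4 and 60.2 CPM (-0.88, SE 0.09, adjusted p = 1.0e-05 by limma-voom). None of the 4 overlapped with the controls. HMGA1, with 360.8 and 418.4 CPM, was not called (-0.23, SE 0.10, adjusted p = 0.0633 by limma-voom) and fell by 0.66 on the log2 scale after GC correction (adjusted p = 1.8e-06 by limma-voom).

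Genistein alone called 0 of the 5 members in Mia-PaCa-2 by limma-voom, 0 by edgeR and 0 by DESeq2, where 8.31% of genes were called (4.18% higher and 4.13% lower), and 1 member had an unadjusted p under 0.05. That member was HMGA1, at 569.3 and 485.4 CPM against 411.3 and 465.1 in the controls (log2 fold change 0.25, SE 0.09, adjusted p = 0.109 by limma-voom). IGF2 had 1.64 and 1.65 CPM and H19 5.84 and 5.81, both within the range of the controls. Added to gemcitabine, genistein lowered IGF2BP3 further, by 1.41-fold from gemcitabine alone (log2 fold change -0.49, SE 0.12, adjusted p = 0.0237 by limma-voom). It was the 1 member called of 5, where 5.88% of genes were called, 4.05% higher and 1.83% lower. This call did not hold without library II of both drugs (-0.29, adjusted p = 0.121 by limma-voom) or without gemcitabine library I (-0.48, adjusted p = 0.184) or II (-0.50, adjusted p = 0.141), nor with all 16 libraries in 1 model (-0.49, adjusted p = 0.188) or on the FPKM scale (-0.35, adjusted p = 0.378 by limma-trend). The interaction of the drugs, which asks whether their log2 effects add up, called 0 of the 5 members by limma-voom and edgeR. By limma-voom, 2 members had an unadjusted p under 0.05 and 0.0249% of all genes were called. DESeq2 called 0 members and gave no adjusted p for IGF2 and H19.

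In PANC-1, the member called with gemcitabine was H19, which fell. H19 had 168 and 123 CPM in the controls and 80.8 and 72.5 with gemcitabine, 1.80-fold lower (log2 fold change -0.85, SE 0.18, adjusted p = 0.0288 by limma-voom). It was the 1 member called of 8, where 7.52% of 16909 genes were called. The libraries did not overlap, but the call did not hold without control I (-0.69, adjusted p = 0.0695 by limma-voom), without gemcitabine I (-0.92, adjusted p = 0.146) or II (-0.78, adjusted p = 0.228), or without genistein I or II (-0.87 each, adjusted p = 0.0796 and 0.08). IGF2 had 13.7 and 11.5 CPM with gemcitabine and 13.6 and 11.2 in the controls (0.07, SE 0.20, adjusted p = 0.853 by limma-voom). IGF2BP2 had 127.7 and 125.2 CPM against 109.5 and 107.1 in the controls and was not called (0.27, SE 0.09, adjusted p = 0.0955 by limma-voom).

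With both drugs in PANC-1, H19 and HMGA2 were lower, 2 of 8 members called where 17.1% of genes were called. H19 had 53.9 and 79.4 CPM and fell 2.13-fold (log2 fold change -1.09, SE 0.19, adjusted p = 0.00707 by limma-voom). HMGA2 had 75.2 and 69.1 CPM against 100.5 and 133.5 in the controls and fell 1.60-fold (-0.68, SE 0.17, adjusted p = 0.0309 by limma-voom). The groups did not overlap for either gene in CPM, but in FPKM the HMGA2 libraries given both drugs, at 24.9 and 24.6, lay between the controls at 23.3 and 37.4. The HMGA2 call did not hold on that scale (-0.25, adjusted p = 0.451 by limma-trend), with scaling by library size alone (-0.52, adjusted p = 0.0848), with only the 4 libraries compared (-0.68, adjusted p = 0.139) or when any PANC-1 library other than control I was left out. Without control II the log2 fold change was -0.44 (adjusted p = 0.0549 by limma-voom), and without the other 6 the adjusted p was 0.0562 to 0.103. Of the alternatives run for H19, the call was lost with the 4 libraries compared alone (-1.09, adjusted p = 0.0679).

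The PANC-1 controls differed between themselves. HMGA2, LIN28B and IGF2BP3 were lower in control I than in control II (LIN28B with 2.76 against 6.66 CPM, IGF2BP3 with 63.7 against 92.7), and HMGA1, IGF2BP1, IGF2 and H19 were higher (HMGA1 with 660.3 against 482.8 CPM). The first 3 have 39.4% to 43.9% GC and the last 4 have 49.4% to 61.8%. IGF2BP2, with 47.3% GC, had 109.5 CPM in control I and 107.1 in control II. Control I was the library with the steepest GC slope, and the part of GC content in the difference between the controls was not tested. After GC correction HMGA2 was called with gemcitabine (log2 fold change -0.47, adjusted p = 0.0035 by limma-voom) as well as with both drugs (-0.78, adjusted p = 1.8e-04), and with both drugs IGF2BP1 (-0.50, adjusted p = 0.00125) and IGF2BP3 (-0.57, adjusted p = 0.0134) were called too. Without the correction, IGF2BP1 had 81.8 and 89.9 CPM with both drugs, below both controls, but its FPKM of 35.7 and 42.2 lay between the controls at 49.3 and 32.7 (log2 fold change in CPM -0.36, SE 0.11, adjusted p = 0.0495 by limma-voom), under the fold threshold. IGF2BP3 had 66.6 and 47.8 CPM (-0.45, SE 0.24, adjusted p = 0.22 by limma-voom).

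Genistein alone called 0 of 8 members in PANC-1 by limma-voom and by edgeR and 1 by DESeq2, where 0.0591% of genes were called, and 1 member had an unadjusted p under 0.05. That member was H19, at 65.8 and 66.7 CPM against 168 and 123 in the controls (log2 fold change -1.06, SE 0.19, adjusted p = 0.106 by limma-voom). The groups did not overlap, and H19 passed with only the 4 libraries compared (-1.12, adjusted p = 0.0225 by limma-voom), with all 16 in 1 model (-1.10, adjusted p = 0.00749), after GC correction (-0.64, adjusted p = 0.0048) and without either library of both drugs, but in none of the other 6 fits without 1 library. HMGA1 had 650.7 and 635.4 CPM with genistein, between the controls, and was called only after GC correction (0.64, adjusted p = 0.00317 by limma-voom). LIN28B had 55 to 213 counts in PANC-1, and its 2.76 and 6.66 CPM in the controls overlapped the treated libraries, at 4.75 to 7.58. Its log2 fold changes of 0.71 (SE 0.39), 0.63 (SE 0.42) and 0.38 (SE 0.41) with gemcitabine, genistein and both drugs had adjusted p of 0.301, 0.445 and 0.564 by limma-voom. Added to gemcitabine, genistein called 0 of 8 members by limma-voom, edgeR and DESeq2, with 3 at an unadjusted p under 0.05 and 0.0177% of genes called (0.0118% higher and 0.00591% lower). After GC correction IGF2BP1 was called in this comparison (log2 fold change -0.44, adjusted p = 0.0153 by limma-voom). The interaction called 0 of 8 by each of these tools, with 1 at an unadjusted p under 0.05, and 0% of all genes.

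**Figure D4:**
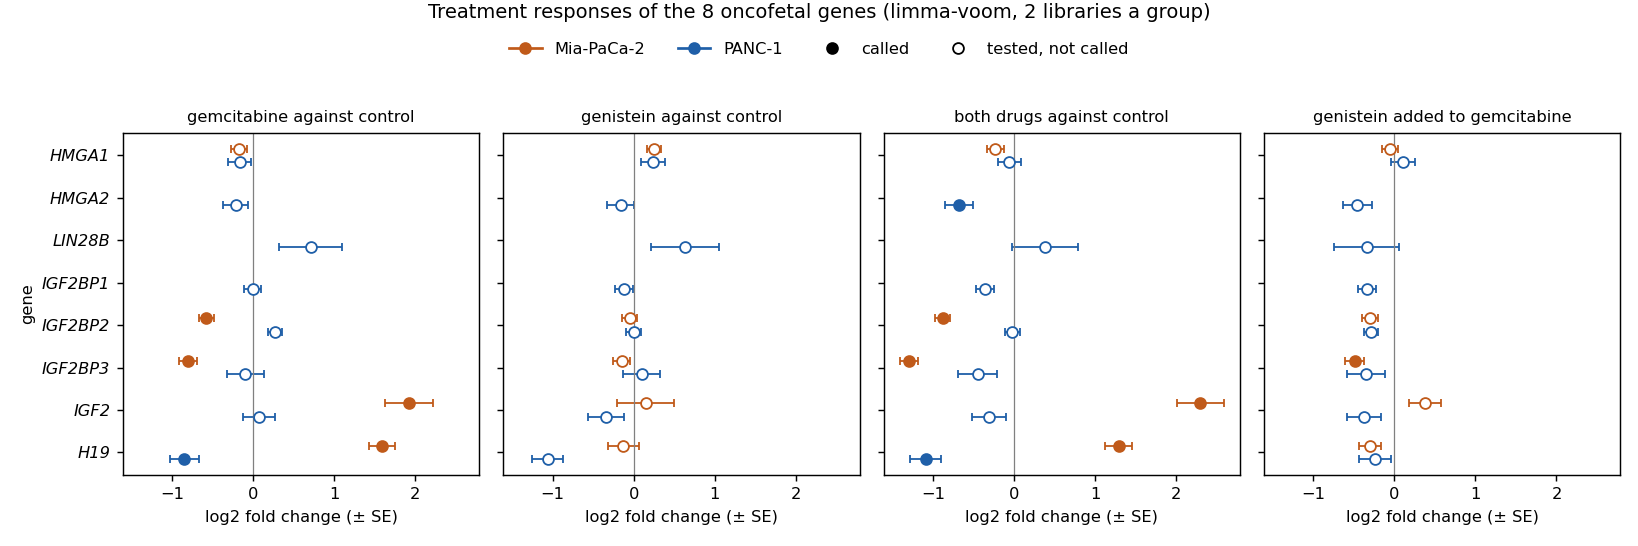
Log2 fold change with its standard error for each tested member in Mia-PaCa-2 (orange) and PANC-1 (blue) in 4 comparisons, filled where called. IGF2 and H19 rise and IGF2BP2 and IGF2BP3 fall with gemcitabine and with both drugs in Mia-PaCa-2, while H19 falls in PANC-1, and HMGA2 falls there with both drugs.

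The lines were then compared in their responses, in 1 model of all 16 libraries, for the 5 members measured in both. The gemcitabine response of H19 was lower in PANC-1 than in Mia-PaCa-2 by 2.54 log2 units (SE 0.33, adjusted p = 5.4e-04 by limma-voom), a rise in one line against a fall in the other. That of IGF2 was lower in PANC-1 by 1.93 (SE 0.39, adjusted p = 0.00677 by limma-voom), and that of IGF2BP2 was higher in PANC-1 by 0.75 (SE 0.11, adjusted p = 0.00127 by limma-voom). These were 3 of 5 members, where 15.3% of 17863 genes were called. The IGF2 difference did not hold without Mia-PaCa-2 control I, which had 20 counts of it (-1.58, adjusted p = 0.0783 by limma-voom). The IGF2BP2 difference missed the threshold on both FPKM scales (0.72 and 0.74, adjusted p = 0.0508 and 0.0575 by limma-trend). IGF2BP2 fell in Mia-PaCa-2 from a level it shared with PANC-1, where the gemcitabine libraries were above the controls.

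For both drugs the same 3 members differed, where 18.1% of genes were called. The difference was -2.46 for H19 (SE 0.34, adjusted p = 3.8e-04 by limma-voom), -2.68 for IGF2 (SE 0.39, adjusted p = 5.9e-04) and 0.78 for IGF2BP2 (SE 0.12, adjusted p = 6.9e-04). IGF2BP3 missed the threshold (0.77, SE 0.25, adjusted p = 0.0506 by limma-voom) and passed with edgeR and with DESeq2. After GC correction IGF2BP3 was called in the difference for both drugs (0.68, adjusted p = 0.0114 by limma-voom) and in that for gemcitabine (0.53, adjusted p = 0.0374), where it had 0.61 (SE 0.24, adjusted p = 0.102) without the correction. The genistein responses differed for 0 of 5 members by limma-voom, edgeR and DESeq2, with 1 at an unadjusted p under 0.05 and 0.0336% of genes called. That member was H19 (-0.99, SE 0.37, adjusted p = 0.351 by limma-voom). HMGA1 was called in none of these 3 differences (log2 -0.10, -0.06 and 0.08 for gemcitabine, genistein and both drugs), and after GC correction it was called in all 3 (0.47, 0.36 and 0.61).

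**Figure D5:**
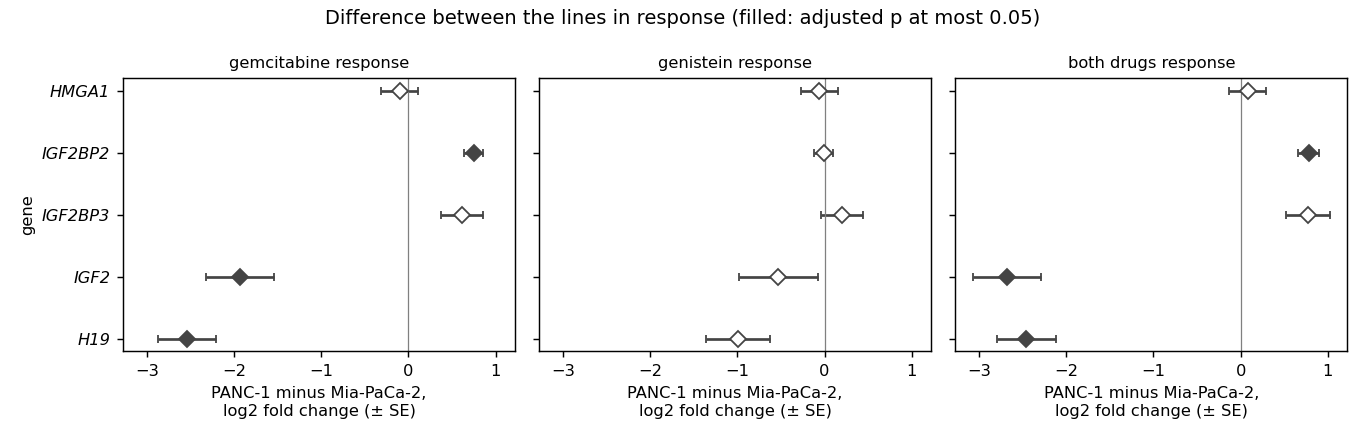
Response in PANC-1 minus response in Mia-PaCa-2 (log2 fold change with its standard error) for the 5 members measured in both lines, filled where the adjusted p is at most 0.05. H19 and IGF2 lie at -1.93 to -2.68 and IGF2BP2 at 0.75 and 0.78 for gemcitabine and for both drugs, and the genistein panel has no filled point.

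Genes around the members were read from lists of known partners, all in fits without GC correction. In Mia-PaCa-2 the GC slopes differed between the control and gemcitabine libraries, and the part of this in the list results was not tested. Of 22 genes of let-7 processing and decay, 20 were tested in each line. In Mia-PaCa-2, 9 were called lower and 0 higher with gemcitabine, against 14.6% and 15% of all genes. Their median change was -0.38 on the log2 scale, against -0.01 over all genes. With both drugs 11 were lower and 0 higher (20.2% and 20.3% of all genes), with a median of -0.56. DICER1, which cuts the let-7 precursor, fell by 0.58 on the log2 scale with genistein (SE 0.16, adjusted p = 0.0325 by limma-voom), by 1.22 with both drugs (SE 0.17, adjusted p = 6.3e-05) and by 0.65 when genistein was added to gemcitabine (SE 0.17, adjusted p = 0.0383). ZCCHC11 (TUT4), which adds uridines to LIN28-bound let-7 precursors, fell by 0.86 with gemcitabine (SE 0.14, adjusted p = 4.2e-04) and by 1.17 with both drugs (SE 0.14, adjusted p = 2.6e-05). In PANC-1 the list had 1 gene called with gemcitabine and 3 with both drugs, all lower, where 3.03% and 6.9% of all genes were called lower. The list medians in PANC-1 were -0.09 and -0.34 where all genes had 0.03 and 0.01. The helicase DDX17, a partner of the nuclear microRNA processor, fell there by 0.87 with gemcitabine (SE 0.12, adjusted p = 0.00782) and by 0.93 with both drugs (SE 0.12, adjusted p = 0.00247), and in Mia-PaCa-2 it fell by 0.97 with gemcitabine (SE 0.09, adjusted p = 9.3e-06).

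Of 5 genes that host let-7 hairpins, 3 were in the files and 1 was tested. HUWE1, a ubiquitin ligase gene that holds let-7f and miR-98 hairpins in its introns, fell by 0.48 in Mia-PaCa-2 with both drugs (SE 0.08, adjusted p = 1.9e-04 by limma-voom) and had 30.7 to 47.0 FPKM there and 69.3 to 95.1 in PANC-1. The other two, MIRLET7DHG and LINC00478, did not exceed 0.329 FPKM in any library. Other reported let-7 targets were called in both directions in Mia-PaCa-2, and nothing particular to the list is read from its counts there. Of 30 genes, 26 were tested in Mia-PaCa-2 and 29 in PANC-1. With gemcitabine 4 were called higher and 4 lower in Mia-PaCa-2 (median 0.08), against 15% and 14.6% of all genes. In PANC-1, 4 were higher and 0 lower (median 0.16), where 4.49% and 3.03% of all genes were called higher and lower. With both drugs the counts were 4 and 4 in Mia-PaCa-2 (median 0.09), against 20.3% and 20.2% of all genes. In PANC-1 the counts were 6 and 4 (median -0.02), where 10.2% and 6.9% of all genes were called. Among them the cell cycle genes E2F2 and CDC25A rose with gemcitabine in both lines, E2F2 by 0.97 (SE 0.10, adjusted p = 2.1e-05) in Mia-PaCa-2 and by 1.55 (SE 0.12, adjusted p = 0.00128) in PANC-1. Of the 4 called lower with gemcitabine in Mia-PaCa-2, IGF1R had the largest fall, by 0.79 (SE 0.09, adjusted p = 3.5e-05 by limma-voom).

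In Mia-PaCa-2, where IGF2 rose, its receptor gene IGF1R and the substrate gene IRS1 fell while IRS2 rose. Of 16 genes of the IGF axis, 9 were tested in Mia-PaCa-2, of which 3 were called higher and 2 lower with gemcitabine and the same numbers with both drugs, where 29.6% and 40.5% of all genes were called in either direction. IGF1R and IRS2 are also reported let-7 targets and stand in that list too. IGF1R, the main signalling receptor of IGF2, fell by 0.79 on the log2 scale with gemcitabine (SE 0.09, adjusted p = 3.5e-05 by limma-voom) and by 1.16 with both drugs (SE 0.09, adjusted p = 9.4e-07). Its docking protein IRS1 fell by 1.02 (SE 0.09, adjusted p = 1.0e-05) and 1.45 (SE 0.10, adjusted p = 3.2e-07). IRS2 rose by 0.61 (SE 0.17, adjusted p = 0.0141) and 0.91 (SE 0.17, adjusted p = 6.4e-04), and the secreted binding protein IGFBP2 rose by 1.05 (SE 0.22, adjusted p = 0.0029) and 1.5 (SE 0.22, adjusted p = 1.1e-04). In PANC-1, 12 of the 16 were tested. With gemcitabine 0 were higher and 1 lower, where 4.49% and 3.03% of all genes were called higher and lower. With both drugs 1 was higher and 4 were lower, where 10.2% and 6.9% of all genes were called higher and lower. With both drugs IGF1R fell there by 0.63 (SE 0.09, adjusted p = 0.00342) and IRS2 rose by 0.75 (SE 0.14, adjusted p = 0.00906).

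Some other imprinted genes rose in Mia-PaCa-2. Of 21 listed, 11 were tested there, and 3 were called higher and 0 lower with gemcitabine and with both drugs, with medians of 0.19 and 0.36. Of all genes, 15% and 20.3% were called higher in these comparisons, and nothing particular to the list is read from its counts. CDKN1C, a growth-restraining imprinted gene in the same region of chromosome 11, rose by 2.46 with gemcitabine (SE 0.34, adjusted p = 1.9e-04 by limma-voom) and by 3.39 with both drugs (SE 0.33, adjusted p = 4.9e-06). PHLDA2, also of that region, rose by 1.83 with gemcitabine (SE 0.21, adjusted p = 5.1e-05) and by 0.82 with genistein (SE 0.23, adjusted p = 0.0349). MEST, an imprinted gene on chromosome 7, rose by 0.75 with genistein (SE 0.22, adjusted p = 0.0472) and by 2.74 with both drugs (SE 0.20, adjusted p = 5.6e-07). In PANC-1, 14 were tested, and their median was -0.07 with gemcitabine and -0.06 with both drugs, against 0.03 and 0.01 over all genes.

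Transcripts reported as bound by IGF2BP proteins were read next. Of 17 listed, members left out, 16 were tested in each line. In Mia-PaCa-2, 2 were called higher and 7 lower with gemcitabine (median -0.28), against 15% and 14.6% of all genes, and 3 higher and 9 lower with both drugs (median -0.61), against 20.3% and 20.2%. CD44, an adhesion receptor, fell by 1.03 with gemcitabine (SE 0.07, adjusted p = 2.0e-06 by limma-voom) and by 1.12 with both drugs (SE 0.07, adjusted p = 2.2e-07), and ACTB, encoding beta-actin, fell by 0.80 with gemcitabine (SE 0.08, adjusted p = 1.9e-05). FSCN1, an actin-bundling gene, rose by 1.43 (SE 0.19, adjusted p = 1.4e-04) and 2.35 (SE 0.18, adjusted p = 9.6e-07). In PANC-1, 1 was higher and 2 lower with gemcitabine (median -0.04), against 4.49% and 3.03% of all genes, and 2 higher and 2 lower with both drugs (median -0.17), against 10.2% and 6.9%. ACTB fell there too, by 0.89 with gemcitabine (SE 0.12, adjusted p = 0.00663) and by 1.23 with both drugs (SE 0.12, adjusted p = 0.00107). Of 18 other oncofetal and embryonic genes, 3 were tested in Mia-PaCa-2 and 7 in PANC-1. TPBG, an oncofetal trophoblast antigen, rose in Mia-PaCa-2 by 0.59 with gemcitabine (SE 0.11, adjusted p = 0.00165) and fell in PANC-1 by 0.48 (SE 0.11, adjusted p = 0.0367). The stem cell factor SALL4 rose in PANC-1 with gemcitabine by 1.06 (SE 0.25, adjusted p = 0.0396), and the cancer-testis gene PRAME fell by 0.70 (SE 0.10, adjusted p = 0.00816).

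Genes whose levels followed the members most closely were read from log2 CPM over the 8 libraries of a line, which share treatments and GC differences, so likeness is a description. In Mia-PaCa-2, IGF2BP3 was most like ASH1L and NAA25 (Pearson r 0.998 each), IGF2BP2 most like NAA15 and LMNB1 (0.997 each) and HMGA1 most like STK40 (0.985) and DDX19B (0.98), among 14294 genes. In PANC-1, among 14903 genes, IGF2BP3 was most like ADSS and FER (0.997 each), HMGA1 most like PCBD1 and ERI3 (0.994 each), H19 most like INF2 (0.989) and VWA1 (0.988) and HMGA2 most like LPCAT2 (0.987) and STXBP5 (0.985). IGF2BP1 was most like EP400 (0.988) and ARHGEF2 (0.967), IGF2 most like VILL (0.982) and KIF18B (0.977) and IGF2BP2 most like STARD7-AS1 (0.957) and HEY1 (0.943). No member was among the 2 genes most like another, among members with at least 100 counts in every library of the line. IGF2 and H19 in Mia-PaCa-2 and LIN28B in PANC-1 fell short of that, so their likeness to other genes was not examined there.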

How the data were processed

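Poly-A selected, stranded libraries of 2 cell lines under 4 treatments were sequenced with single reads. Per the labels and the study's methods, the authors aligned reads to GRCh37 with TopHat2 (2.0.4), removed reads with several alignments (Picard 1.29), counted reads per gene with HTSeq (0.6.1) and computed FPKM of genes and isoforms with Cufflinks (2.1.1). Which annotation release was used, and whether counting took strand into account, is not given in the sources used here. The deposited counts are raw, and the deposited FPKM values are scaled for transcript length and depth by the authors.

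From the counts, libraries were scaled by TMM, low genes were removed with filterByExpr, and limma-voom (limma 3.58.1, edgeR 4.0.16, R 4.3.3) was fitted to the 8 libraries of a line, or to all 16 for differences between lines, with p-values adjusted over all genes tested. The test was run on simulated counts, which had no GC differences between libraries, so that check does not cover such differences in these data. A gene was called at an adjusted p of at most 0.05, a log2 fold change of at least 0.4 in size and, in treated libraries, an average FPKM over 1, and by the adjusted p alone for interactions and line differences. A line in which every library of a gene had at most 3 counts was given no fold change, and a floor of 3 counts per library set the lower bounds, which cover counting error only. GC correction subtracted a loess curve (span 0.3) of log2 CPM on the GC content of GENCODE exons in each library, for the 97.9% of tested genes with a value. Alternatives were the edgeR quasi-likelihood test, the DESeq2 (1.42.0) Wald test and size factors, library size alone, no filter, limma-trend on log2(FPKM + 1) and log2(FPKM + 0.1), other sets of libraries, and each library left out. Seed matches were counted in canonical 3′ UTRs of the annotation lifted to GRCh37. Depth was 12943482 to 31991860 counts per library.

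The members, gene lists and tests were chosen with earlier results of these data known. Named genes were the 8 members, per list up to 2 genes with the largest rise and fall among those called in a comparison, any gene of a list with 5 or fewer measured, the 2 genes most like a member with at least 100 counts in every library of the line, and genes overlapping a member. Lists of let-7 processing, hosts and targets, the IGF axis, imprinted and oncofetal genes, IGF2BP-bound transcripts and cell type markers were used. A result for 1 listed gene is not reported here.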

Additional observations from a re-analysis of the deposited data

Results flagged for a closer look

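Differences between the lines in response passed the test for 3 members and 2 treatments, each as PANC-1 minus Mia-PaCa-2 on the log2 scale by limma-voom. For gemcitabine they were -2.54 for H19, -1.93 for IGF2 and 0.75 for IGF2BP2, and for both drugs -2.46 for H19, -2.68 for IGF2 and 0.78 for IGF2BP2. After GC correction the gemcitabine differences were -1.96, -1.38 and 0.85 and the both-drug differences -1.92, -2.17 and 0.84, and all 6 passed. Over 16 fits that left out 1 library each, the IGF2 difference for gemcitabine ran from -2.21 to -1.58 and that of H19 from -2.80 to -2.31. The IGF2BP2 difference for gemcitabine was 0.72 and 0.74 on the FPKM scales and missed the threshold there (adjusted p = 0.0508 and 0.0575 by limma-trend). The responses to the 2 treatments share the control libraries and are not independent of each other. Groups of 2 libraries are too small for a test of single libraries.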

How the results depend on the processing

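Over 80 results and 1713 alternatives, 1616 kept their side of the threshold, 43 were weaker, 51 were stronger and 3 reversed. The sign changed without a call in 99 alternatives. Of 19 results past the adjusted p, 11 passed in every alternative and 0 changed sign over 426 alternatives. The number of members called stayed 4 in Mia-PaCa-2 with gemcitabine and with both drugs in every fit without 1 library (4 to 4). Leaving out 1 library gave 0 to 1 for genistein added to gemcitabine in Mia-PaCa-2, 0 to 2 for gemcitabine, 0 to 1 for genistein and 1 to 3 for both drugs in PANC-1, 2 to 4 and 3 to 4 for the line differences with gemcitabine and both drugs, and 4 to 5 for members not overlapping between lines, which was 7 in the controls alone. On both FPKM scales and with all 16 libraries in 1 model, genistein added to gemcitabine in Mia-PaCa-2 called 0 members. In PANC-1, both drugs called 1 member by library size alone and on both FPKM scales and 0 with only the libraries compared, and genistein called 1 by DESeq2, with only the libraries compared and with all 16 in 1 model. GC correction, with and without the replicate block, called 2 members in PANC-1 with gemcitabine, 2 with genistein, 4 with both drugs and 1 with genistein added. For the line differences it called 5 with gemcitabine and 1 with genistein (4 and 0 with the block) and 5 with both drugs, and it reversed HMGA1, to 0.47 with gemcitabine with and without the block and to 0.36 with genistein. The cause was not tested. The replicate numbers share a label: deviations of same-numbered libraries correlated from -0.275 to 0.139 in Mia-PaCa-2 and from -0.535 to 0.291 in PANC-1. A replicate block left 0 members called with gemcitabine in PANC-1, where H19 had adjusted p = 0.0748 by limma-voom, and moved the genes called there from 1272 to 442. In fits of 4 libraries, pairs of the same number against crossed pairs called 594 and 5067 genes for both drugs in PANC-1, 59 and 1510 (1 member in the crossed fit) for genistein added there, and 689 and 1465 for genistein added in Mia-PaCa-2, an alternative chosen after seeing the data. GC correction moved the genes called in PANC-1 from 1272 to 3085 with gemcitabine, from 10 to 1227 with genistein and from 2897 to 5062 with both drugs. Scaling by library size alone shifted the median of all genes by 0.107 with gemcitabine in Mia-PaCa-2, and by 0.111 with gemcitabine and 0.158 with both drugs in PANC-1. The lowest counts behind tested values were 55 to 213 for LIN28B in PANC-1 and 20 to 126 for IGF2 in Mia-PaCa-2, where counting error is largest.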
